A study of Mus musculus with 27 samples.

Results

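Embryoid bodies of the mouse H9 line, induced pluripotent stem cells made with 3 reprogramming factors and called 3F here, were compared with embryoid bodies of the R1 embryonic stem cell line after 5 days of differentiation. The comparison rests on 6 of the series' 27 arrays, the 3 labelled H9 and the 3 labelled R1 at day 5, each group given as biological replicates. Both lines had been kept undifferentiated on mitomycin-treated feeder cells with leukemia inhibitory factor (LIF), and both were then aggregated in medium with 20% fetal bovine serum and no LIF, so serum, LIF withdrawal and a feeder history are common to both groups. Each line is a single one, so a difference between 3F and R1 cannot be told apart from a difference between any 2 lines. The labels give no strain, passage or donor cell for either line. The array medians of the 6 arrays lay between 5.91 and 6.00 on the log2 scale. RNA was taken from whole embryoid bodies, in which fewer cells of a type and less RNA per cell cannot be told apart.

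An embryoid body passes through an order of states that resembles early development. Pluripotency genes decline, primitive streak genes such as Mixl1 and Eomes rise and fall, Mesp1 and Kdr mark the mesoderm that follows, and cardiac, blood and endoderm genes come up later. Reprogramming resets a somatic cell to the pluripotent state. Independently made pluripotent lines can keep differences at single genes, among them genes of the germ line, whose promoters are commonly silenced by DNA methylation in somatic cells.

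Of 18193 genes measured, 68 differed between 3F and R1 embryoid bodies at day 5 (0.374% of genes), 40 of them higher in 3F (0.22%) and 28 lower (0.154%). A gene is said to differ, or to be called, with an adjusted p under 0.05 in limma and a difference of at least 2-fold. Differences are 3F minus R1 on the log2 scale, with the standard error of the fit after ±, and levels are log2 RMA signals. All 68 called genes had groups that did not overlap, as had 25.1% of all genes. The differences were over 4-fold for 13 genes. The strongest were Gbp2b, Bcat2, Sycp3, Fmr1nb and Rhox5 on the lower side, and AI506816, Rpgrip1, Slc1a5, Amph and Zfp429 on the higher side. The median difference over all genes was 0.01. Between an array of 3F and one of R1, the SD of the log2 difference over genes ran from 0.306 to 0.439 (median 0.390, 9 pairs). Between 2 arrays of one line it ran from 0.223 to 0.433 (median 0.281, 6 pairs), so the 2 ranges overlapped and the median was higher between lines. No detection calls were used: for 26 of the 68 genes the mean of the lower line was under 6.50, the level of the filter on dim genes, and was not shown to be above background.

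**Figure D1:**
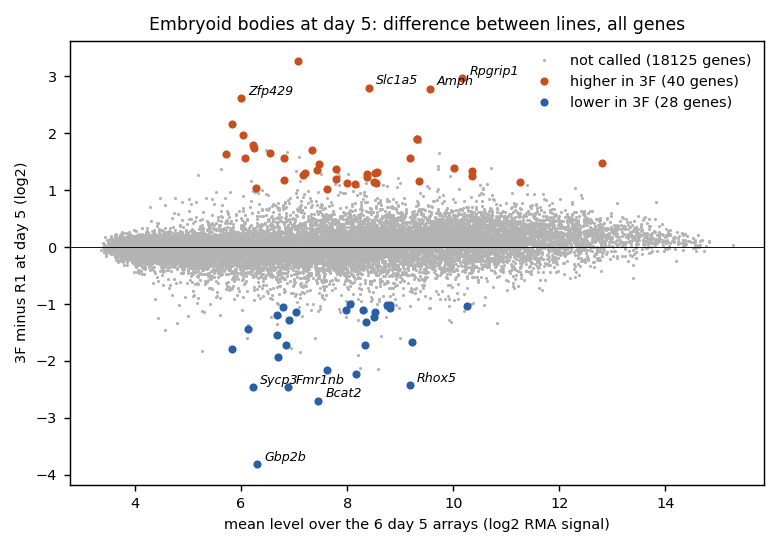
Each point is 1 gene. The horizontal axis gives its mean level over the 6 arrays of day 5 (log2 RMA signal) and the vertical axis 3F minus R1 (log2). The 40 genes called higher and 28 called lower in 3F are coloured, and 18125 others lie in grey around 0.

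A pair of array properties stands beside every result here. The 3' minus 5' index, taken from the array's control probe sets for the Actb and Gapdh transcripts as the mean log2 excess of the 3' over the 5' end, was 1.17, 1.01 and 1.11 in 3F replicates 1, 2 and 3 and 1.78, 1.93 and 1.28 in R1 replicates 1, 2 and 3, so the groups did not overlap. With this index as a covariate 86 genes were called, of which 28 were among the 68, and 4 of the 8 germ line genes described next. R1 replicate 3 stood apart: its array weight was 0.57, the lowest of the 6 arrays. Without it 91 genes were called, 56 of the 68 among them, and with array weights 220 genes, 65 of the 68 among them. Without R1 replicate 2 the count was 39 and without 3F replicate 3 it was 41. Leaving out R1 replicate 2 ended 31 of the 68 calls, 3F replicate 3 ended 28, 3F replicate 1 ended 23, 3F replicate 2 and R1 replicate 1 ended 21 each, and R1 replicate 3 ended 12. In all, 32 of the 68 calls held in each of the 6 fits that left out 1 array, and 14 held under all 19 alternatives.

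Germ line and cancer-testis genes made up 8 of the 28 genes that were lower in 3F. This group was put together after the values were seen, so its count is a description. It holds 3 genes of meiotic chromosomes, Sycp3 (a synaptonemal complex protein), Stag3 (a subunit of meiotic cohesin) and Ccnb1ip1 (a factor of meiotic crossing over). It further holds Rnf17 (a Tudor domain protein of sperm development), Tex19.1 (a germ cell protein that restrains retrotransposons), Rhox5 (an X-linked homeobox gene of reproductive and extraembryonic tissue) and the X-linked antigens Fmr1nb and Trap1a, known from testis and tumours. Each of the 8 had a lower mean at day 5 than at day 0 in both lines. Trap1a went from 12.13 to 7.47 in 3F and from 13.00 to 9.19 in R1. Tex19.1 went from 10.12 to 6.27 and from 10.9 to 7.55, and Stag3 from 5.36 to 4.94 and from 7.04 to 6.72. At day 0 Trap1a and Tex19.1 were not called between the lines (limma adjusted p = 0.13 and 0.077). Whether the group follows the loss of the undifferentiated state was not tested. The 250 bases before the RefSeq start of 4 of the 8 genes follow, from GRCm38.p6 and 5' to 3', with the E-box CACGTG in capitals. This motif is a known binding site of basic helix-loop-helix factors, some of which repress germ line promoters in pluripotent cells. Sycp3 and Stag3 are shown because they hold the motif, and Fmr1nb and Rhox5 because they are the other pair with large differences and hold none.
Sycp3, chr10:88459337-88459586, plus strand: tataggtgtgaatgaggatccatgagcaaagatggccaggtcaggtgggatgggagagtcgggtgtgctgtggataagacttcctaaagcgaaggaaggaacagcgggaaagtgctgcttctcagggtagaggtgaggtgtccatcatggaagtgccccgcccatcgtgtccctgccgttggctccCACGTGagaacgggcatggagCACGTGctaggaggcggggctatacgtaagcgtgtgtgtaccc
Stag3, chr5:138280259-138280508, plus strand: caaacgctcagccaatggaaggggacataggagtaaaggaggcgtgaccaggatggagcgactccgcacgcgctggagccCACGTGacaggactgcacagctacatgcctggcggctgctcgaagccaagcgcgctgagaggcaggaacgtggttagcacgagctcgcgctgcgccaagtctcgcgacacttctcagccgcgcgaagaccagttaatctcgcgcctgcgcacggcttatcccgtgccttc
Fmr1nb, chrX:68761589-68761838, plus strand: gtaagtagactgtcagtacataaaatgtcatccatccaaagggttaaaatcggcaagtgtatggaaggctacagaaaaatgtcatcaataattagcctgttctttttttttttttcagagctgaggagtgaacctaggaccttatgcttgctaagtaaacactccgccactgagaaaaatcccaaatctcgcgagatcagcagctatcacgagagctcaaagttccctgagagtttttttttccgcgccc
Rhox5, chrX:37754358-37754607, plus strand: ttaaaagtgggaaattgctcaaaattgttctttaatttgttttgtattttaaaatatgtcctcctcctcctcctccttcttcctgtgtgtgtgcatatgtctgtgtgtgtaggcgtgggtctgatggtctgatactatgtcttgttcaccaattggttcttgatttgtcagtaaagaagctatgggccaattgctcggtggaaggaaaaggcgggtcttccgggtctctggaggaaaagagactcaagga
CACGTG, which reads the same on both strands, was found in 2 copies before Sycp3 and in 1 before Stag3. Of the 8 genes, 7 had an entry and 2 of these held the motif. Over all 32851 promoter windows of 250 bases, 6.02% held it. The windows of Sycp3 and Stag3 held 12 and 26 CpG dinucleotides and those of Fmr1nb and Rhox5 held 7 and 4, against a median of 6 over all windows.

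Sycp3 stood at 5.39, 4.55 and 5.03 in 3F replicates 1, 2 and 3 and at 7.93, 7.87 and 6.57 in R1. Every 3F array lay below every R1 array, and R1 replicate 3 was the lowest of its line. The difference was -2.47 ± 0.43 (adjusted p = 0.0039). With the 3' minus 5' index as covariate it was -1.16 (adjusted p = 0.11), and the call was lost.

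Stag3 stood at 5.18, 4.78 and 4.85 in 3F and at 6.73, 6.65 and 6.78 in R1. Both groups were tight and far apart. Its difference was -1.79 ± 0.25 (adjusted p = 0.00041), and it was called under every alternative run.

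Ccnb1ip1 stood at 7.98, 6.54 and 6.65 in 3F and at 9.89, 9.81 and 8.15 in R1, so that 3F replicate 1 and R1 replicate 3 nearly met. The difference of -2.23 ± 0.48 (adjusted p = 0.027) lost its call without 3F replicate 2 or 3 and without R1 replicate 1 or 2 (adjusted p 0.18 to 0.21), and with the index as covariate (-1.05, adjusted p = 0.38).

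Fmr1nb stood at 5.92, 5.47 and 5.57 in 3F and at 8.63, 8.16 and 7.56 in R1. Rhox5 stood at 8.29, 7.82 and 7.79 in 3F and at 10.79, 10.26 and 10.12 in R1. The 2 X-linked genes were alike in pattern, with 3F replicate 1 the highest of 3F and R1 replicate 3 the lowest of R1. Their differences were -2.46 ± 0.24 (adjusted p = 1.7e-06) and -2.42 ± 0.21 (adjusted p = 4.5e-07), and both were called under every alternative.

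Trap1a stood at 8.34, 7.33 and 6.75 in 3F and at 9.79, 9.27 and 8.50 in R1. The lowest R1 array was just above the highest 3F array. Its difference of -1.71 ± 0.35 (adjusted p = 0.015) was not called without 3F replicate 2 or 3 or R1 replicate 1 or 2 (adjusted p 0.086 to 0.18), nor with the index as covariate (-1.09, adjusted p = 0.23). Rnf17 stood at 6.12, 6.03 and 5.55 in 3F and at 8.04, 7.14 and 7.17 in R1, a difference of -1.55 ± 0.25 (adjusted p = 0.0018). The 3 other probe sets of Rnf17 also read lower in 3F, by values of -0.54 to -0.29, none of them called, and the mean of its probe sets gave -0.66, which is under 2-fold. Tex19.1, which lies outside the 12 largest differences and was added after its values were seen, stood at 6.67, 6.19 and 5.94 in 3F and at 7.81, 7.96 and 6.87 in R1. Its difference was -1.28 ± 0.27 (adjusted p = 0.021), and it lost its call without 3F replicate 2 or 3 or R1 replicate 1 or 2 (adjusted p 0.1 to 0.2) and with the index as covariate (-0.90, adjusted p = 0.23).

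A separate germ line list of 14 genes, of which 13 were measured, had Sycp3 as its 1 called member and a median difference of -0.18 (-0.10 without R1 replicate 3 and 0.06 with the index as covariate). Of the 13 genes, 9 lay below 0 and 4 had an unadjusted p under 0.05, all of them lower in 3F. The piRNA pathway gene Mael stood at 3.86, 3.85 and 3.69 in 3F and at 5.51, 5.36 and 4.28 in R1, a difference of -1.25 ± 0.33 (adjusted p = 0.1). The germ cell RNA helicase Ddx4 stood at 5.08, 4.35 and 4.67 in 3F and at 6.58, 5.77 and 5.09 in R1, a difference of -1.11 ± 0.28 (adjusted p = 0.08). Groups did not overlap for either, but neither passed the test. All values of Mael and the 3F values of Ddx4 lay under 6.50, the level of the filter on dim genes. They were not shown to be above background. Without R1 replicate 3 both were called, Mael at -1.64 (adjusted p = 0.015) and Ddx4 at -1.47 (adjusted p = 0.0075). Morc1 overlapped between lines, with 6.70, 5.79 and 5.48 in 3F against 8.84, 7.37 and 5.84 in R1. The germ cell markers Dazl (0.08 ± 0.16), Stra8 (-0.08 ± 0.30) and Hormad1 (0.15 ± 0.29) had 95% intervals that spanned 0. The mean level of the list was 4.81 to 5.15 in the 3F arrays and 5.16 to 5.75 in the R1 arrays, under 6.50 in each. Of the 11 list genes with a promoter entry, 8 held CACGTG in the same window.

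The largest fitted difference was that of Gbp2b, an interferon-inducible guanylate-binding protein. Its levels were 4.26, 4.24 and 4.68 in 3F and 8.99, 9.30 and 6.33 in R1. R1 replicate 3 lay between the other R1 arrays and 3F. The difference was -3.81 ± 0.60 (adjusted p = 0.0015). The 3F level was not shown to be above background, so no fold is given. The call was lost when the fit used only the 6 arrays (adjusted p = 0.054) and with the index as covariate (-2.43, adjusted p = 0.067). Guanylate-binding proteins form a gene family, and cross-reading between its copies was not tested. None of the 9 measured genes of a 12-gene interferon response list was called, and its median was -0.04. Oas1a was at -0.52 ± 0.23 and Oasl2 at 0.97 ± 0.36, in opposite directions.

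Genes of amino acid handling stood on both sides. Slc1a5, a carrier that brings glutamine and other neutral amino acids into the cell, stood at 9.72, 9.74 and 9.97 in 3F and at 6.97, 7.10 and 6.95 in R1. Both groups were tight. The difference of 2.80 ± 0.15 (adjusted p = 8.3e-11, 6.97-fold) had the lowest adjusted p of the comparison. Its dimmer second probe set showed -0.05 ± 0.20. Bcat2, the mitochondrial aminotransferase of branched-chain amino acids, stood at 6.50, 5.81 and 6.01 in 3F and at 9.0, 8.87 and 8.55 in R1. It was lower in 3F by a log2 difference of -2.70 ± 0.26 (adjusted p = 1.7e-06). Lars2, the mitochondrial leucyl-tRNA synthetase, was higher in 3F by 1.56 ± 0.18 (adjusted p = 2.2e-05), but its second probe set read lower, at -0.88 ± 0.20 (adjusted p = 0.036), and the mean of its 3 probe sets gave 0.30 (adjusted p = 0.15). No direction holds for the gene.

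Among the genes higher in 3F, AI506816, a provisional name, had the largest difference. It stood at 8.92, 8.53 and 8.69 in 3F and at 5.72, 5.17 and 5.45 in R1, a difference of 3.27 ± 0.19 (adjusted p = 2.4e-10). Rpgrip1, a protein of the photoreceptor cilium, stood at 11.80, 11.59 and 11.56 in 3F and at 8.91, 8.52 and 8.62 in R1. The groups lay far apart, with a difference of 2.97 ± 0.32 (adjusted p = 9e-06). The 3 dimmer probe sets of Rpgrip1 read -0.37 to -0.06 and were not called, so the difference rests on 1 probe set, and the mean of all its probe sets gave 0.61.

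Amph, amphiphysin, a membrane-bending protein of endocytosis, stood at 10.53, 10.93 and 11.39 in 3F and at 8.33, 8.16 and 8.01 in R1. Its difference of 2.78 ± 0.20 (adjusted p = 1.4e-08) was carried by 1 probe set, the only one of the gene. Sowahb, an ankyrin repeat gene, stood at 9.62, 10.53 and 10.61 in 3F and at 7.88, 8.27 and 8.95 in R1. The replicates of both lines spread by about 1, and the difference was 1.89 ± 0.26 (adjusted p = 0.00023).

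Zfp429 and Zfp874a, zinc finger genes of the KRAB type, lie on chromosome 13 with 0 measured genes between them, and both were higher in 3F. Genes that were not measured were not counted, so the pair need not be adjacent. Zfp429 stood at 7.26, 7.21 and 7.45 in 3F and at 4.70, 4.65 and 4.72 in R1, a difference of 2.61 ± 0.28. Zfp874a stood at 7.43, 6.92 and 6.95 in 3F and at 5.49, 5.32 and 5.30 in R1, a difference of 1.73 ± 0.28. The pair moved together, with adjusted p = 6.5e-06 and 0.0021, but their sequences belong to a family of close copies and cross-reading was not tested. Limd1, the direct neighbour of Lars2 among the measured genes of chromosome 9, was higher by 1.17 ± 0.23 (adjusted p = 0.011), and its second probe set read 0.07 ± 0.14. Its call was lost without 3F replicate 1 (adjusted p = 0.056) and without R1 replicate 2 (adjusted p = 0.054). On chromosome 14, Ang and Ccnb1ip1, with 8 measured genes between them, went in opposite directions.

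Ang, the secreted ribonuclease angiogenin, stood at 7.05, 6.98 and 6.72 in 3F and at 4.87, 4.49 and 4.91 in R1. The difference was 2.16 ± 0.19 (adjusted p = 4.5e-07). Its 2 other probe sets read 1.08 and 0.16, neither called. Galc, the lysosomal galactosylceramidase, stood at 7.22, 6.89 and 6.94 in 3F and at 4.87, 5.09 and 5.20 in R1, with a difference of 1.96 ± 0.18 (adjusted p = 5.9e-07). Its 2 dimmer probe sets read 0.09 and 0.04, and their mean with the first gave 0.70. Tgds, a sugar nucleotide dehydratase, stood at 10.35, 10.20 and 10.28 in 3F and at 8.13, 8.72 and 8.28 in R1, with a difference of 1.90 ± 0.25 (adjusted p = 0.00016).

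The remaining genes among the 12 largest on the higher side were less stable. Tmem267 was higher by 1.79 ± 0.38 (adjusted p = 0.023), L3hypdh, a hydroxyproline dehydratase, by 1.64 ± 0.34 (adjusted p = 0.017), and Mid1, an X-linked ubiquitin ligase, by 1.65 ± 0.37 (adjusted p = 0.031). Each lost its call in 5 of the 6 fits without an array. For Tmem267 and L3hypdh the exception was the fit without R1 replicate 3, with adjusted p 0.069 to 0.14 and 0.055 to 0.11 in the others. For Mid1 it was the fit without 3F replicate 2, with adjusted p 0.085 to 0.31 in the others. Mid1 ranged from 6.61 to 8.04 in 3F and from 5.58 to 5.96 in R1.

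On the lower side, Nhsl2, an X-linked gene of the Nance-Horan family, stood at 5.19, 6.34 and 5.67 in 3F and at 7.05, 7.38 and 8.53 in R1, a difference of -1.92 ± 0.38 (adjusted p = 0.014). It lost its call without 3F replicate 1 or 3 or R1 replicate 3 (adjusted p 0.082 to 0.11). Sfi1, a centrin-binding protein of the centrosome, differed by -1.72 ± 0.28 (adjusted p = 0.0018), and by -0.95 as the mean of its 2 probe sets, and was not called with the index as covariate (-1.16, adjusted p = 0.075). Tmem242 differed by -1.66 ± 0.31 (adjusted p = 0.0086), by -0.47 as the mean of its 3 probe sets (adjusted p = 0.54), and was not called without 3F replicate 1 or 3 or R1 replicate 2 (adjusted p 0.053 to 0.081). Among the 68 genes, 35 had several probe sets. In 22 of these all other probe sets read the same direction, and in 2 another probe set was called the same way.

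**Figure D2:**
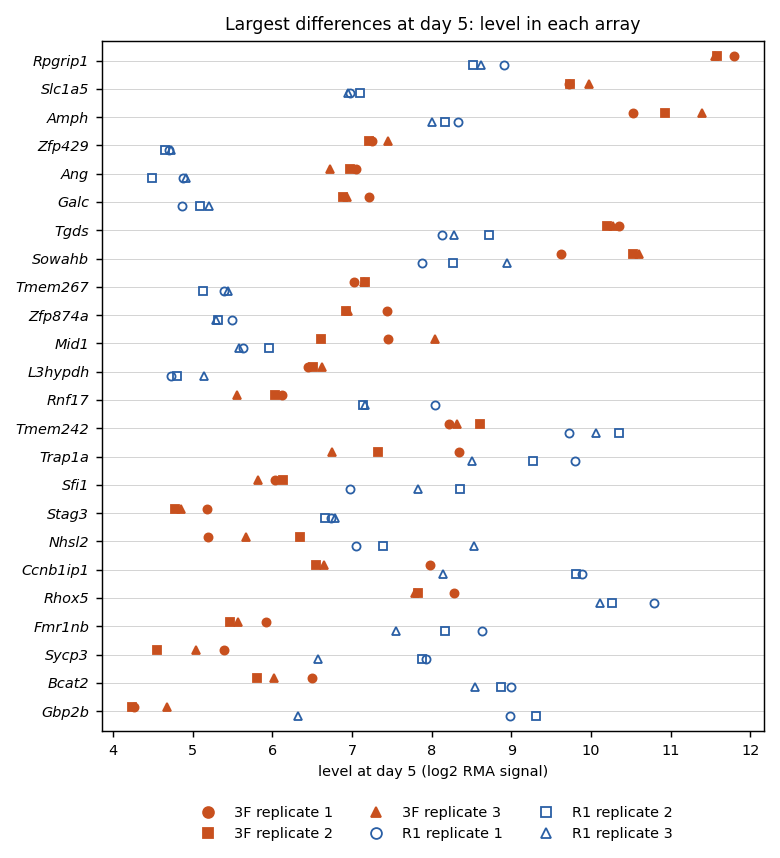
Level of the 12 genes with the largest differences in each direction (provisional names passed over) in each of the 6 arrays, in log2 RMA signal. Filled symbols are 3F and open symbols R1, with 1 symbol per replicate. The groups do not overlap for any of the 24 genes. Among the 12 lower genes, R1 replicate 3 is the R1 array nearest to 3F for Gbp2b, Bcat2, Sycp3, Fmr1nb, Rhox5, Ccnb1ip1 and Trap1a.

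The genes below the 12 named in each direction lay between -2.16 and 1.71, together with those passed over for a provisional name except AI506816. They were listed after their values were seen. Those lower in 3F included Mfap2, an elastic microfibril protein (-1.08 ± 0.21), Tpmt, thiopurine methyltransferase (-1.10 ± 0.17), and Atat1, the enzyme that acetylates alpha-tubulin (-1.11 ± 0.17). Also lower were Prps2, an enzyme of nucleotide precursor synthesis (-1.03 ± 0.19), Trim68 (-1.15 ± 0.22), Trim12c (-1.13 ± 0.18), Wdfy1 (-1.02 ± 0.20), Akr1e1 (-1.01 ± 0.22), Sbno1 (-1.02 ± 0.17), Ccser2 (-1.19 ± 0.25) and the zinc finger genes Zfp936 (-1.44 ± 0.24), Zfp760 (-1.23 ± 0.29) and Zfp286 (-1.06 ± 0.19). The provisional genes Gm6958 (-2.16 ± 0.26) and 3110040N11Rik (-1.32 ± 0.28) completed the lower side. Of these 15 genes, Gm6958, Tpmt and Zfp936 kept their call without any 1 array. Zfp936 lost it with the index as covariate and Tpmt with the mean of probe sets. The other probe sets of Tpmt read -0.28, -0.39 and -0.20, none called. Zfp760, Ccser2, Trim12c, Atat1, Mfap2, Zfp286, Prps2, Sbno1, Wdfy1 and Akr1e1 also lost their call with the mean of probe sets. The other probe sets of Ccser2 read -0.07 and 0.35, and those of Sbno1 -0.07, 0.24, 0.06 and -0.23, none called.

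RNA-related genes on the higher side were Alyref, an mRNA export adaptor (1.34 ± 0.21), Lsm2, a splicing factor (1.13 ± 0.23), Trub1, a pseudouridine synthase (1.28 ± 0.27), and Thumpd1, a tRNA acetylation adaptor (1.40 ± 0.26). Naa15, a subunit of the N-terminal acetyltransferase of nascent proteins, was higher by 1.14 ± 0.18. Of these 5, Alyref and Naa15 kept their call without any 1 array, and Lsm2, Trub1 and Thumpd1 did not (adjusted p up to 0.14, 0.14 and 0.071). Alyref and Naa15 lost their call with the mean of probe sets and with the index as covariate. The second probe set of Alyref read 0.39, and the other probe sets of Naa15 read 0.25, -0.69 and 0.55, none called. Genes of membranes and guidance included Plxnd1, a semaphorin receptor of vessels (1.32 ± 0.28), Radil (1.46 ± 0.29), Lyst, a lysosomal trafficking regulator (1.31 ± 0.29), Exoc3l2 (1.56 ± 0.14) and Sez6l2 (1.04 ± 0.23). Of these, Exoc3l2 kept its call without any 1 array, and the other 4 lost it in 4 or 5 of the 6 fits. Exoc3l2 was not called with the mean of its probe sets, and its second probe set read 0.03. Lyst and Trub1 were not called with the mean of their probe sets either. The other probe sets of Lyst read 0.10 and -0.11, and that of Trub1 read 0.14.

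Sec23ip, a protein of the secretory pathway, gave opposite readings. Its brighter probe set was higher in 3F by 1.2 ± 0.23 (adjusted p = 0.0068) and its second lower by -1.97 ± 0.17 (adjusted p = 2.6e-07), both past the threshold, so no direction holds for the gene. Without R1 replicate 2 the first probe set was no longer called (adjusted p = 0.053). The others on the higher side were Hspb8 (1.14 ± 0.26), a small heat shock protein, H2-Q10 (1.56 ± 0.31), a nonclassical class I gene, Erdr1 (1.47 ± 0.25), Amacr (1.18 ± 0.26), Inava (1.13 ± 0.20), Tceanc2 (1.35 ± 0.14), Wdr54 (1.30 ± 0.22), Btbd3 (1.36 ± 0.28), Stk25 (1.10 ± 0.16), Fam111a (1.19 ± 0.24), Ppp2r3d (1.02 ± 0.16), Ccdc3 (1.23 ± 0.22), Zfp994 (1.26 ± 0.23) and 9130023H24Rik (1.71 ± 0.30). Of these 14, Erdr1, Inava, Tceanc2, Wdr54, Stk25, Zfp994 and 9130023H24Rik were called in all 6 fits without an array. With the index as covariate Inava, Wdr54, Stk25, Zfp994 and 9130023H24Rik lost their call. With the mean of probe sets Erdr1, Inava, Wdr54, Btbd3 and Hspb8 lost their call. The second probe sets of Inava and Wdr54 read -0.03 and 0.03. The other probe sets of Btbd3 read -0.01 and -0.24, and those of Hspb8 0.36 and 0.52. Erdr1 also lost its call with only the 6 arrays, and Tceanc2 was called under every alternative. The reference annotation, which gives each gene 1 chromosome, placed 7 of the 68 genes on X, 5 of them lower in 3F, and 0 on Y.

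The same lines at day 0 and day 11 were measured on other arrays, so these days share no sample with day 5. At day 0, 562 genes were called between 3F and R1 (3.09%), 402 higher (2.21%) and 160 lower in 3F (0.879%). At day 11 it was 185 (1.02%), 42 higher (0.231%) and 143 lower (0.786%). Of the 68 genes of day 5, 37 were called in the same direction at day 0, 23 higher and 14 lower, which is 54.4% of the day 5 genes and 6.58% of the day 0 genes. For day 11 the count was 36, 19 higher and 17 lower, which is 52.9% of the day 5 genes and 19.5% of the day 11 genes. Fitted on only the arrays compared, the day 11 count was 5, and 14 with a replicate block added. No gene was called in opposite directions at day 5 and either other day. Genes called at all 3 days numbered 24, among them Gbp2b, Bcat2, Fmr1nb, Stag3, Rnf17, Slc1a5, Rpgrip1, Ang, Zfp429, Zfp874a and Tgds.

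Gbp2b differed by -5.42 at day 0, -3.81 at day 5 and -4.03 at day 11, and Bcat2 by -3.95, -2.70 and -2.61. Slc1a5 differed by 2.29, 2.80 and 1.95, and Rpgrip1 by 4.21, 2.97 and 2.65. For these 4 genes the difference was present before differentiation and at every later day measured. The meiotic gene Sycp3 had lower means at each later day in both lines, 8.61, 4.99 and 3.74 in 3F and 10.37, 7.46 and 4.91 in R1, with differences of -1.76, -2.47 and -1.18 of which the last was not called.

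Of the 68 genes, 19 were called at day 5 and at neither other day. A call on 1 day alone does not show that the difference changed, so that change was tested directly. The change in difference from day 0 to day 5 was called for 68 of all genes (0.374%) and from day 5 to day 11 for 25 (0.137%). Among the day 5 genes it was called for 6 from day 0 to day 5, and for 5 from day 5 to day 11.

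Before differentiation Amph stood at 8.38 ± 0.22 in 3F and 8.53 ± 0.14 in R1 (SD, n = 3), a difference of -0.15 ± 0.20. By day 5 it stood at 10.95 ± 0.43 in 3F and 8.17 ± 0.16 in R1, and by day 11 it stood at 6.98 ± 0.09 and 5.94 ± 0.20. The difference moved by 2.94 ± 0.28 from day 0 to day 5 (adjusted p = 3.8e-06) and by -1.74 ± 0.28 from day 5 to day 11 (adjusted p = 0.0091). Amph was called higher in 3F at day 5 and, with a smaller difference of 1.04 ± 0.20, at day 11.

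Sowahb was not called at day 0, with 7.31 ± 0.23 in 3F and 7.55 ± 0.14 in R1, nor at day 11, with 7.64 ± 0.27 and 7.55 ± 0.24. At day 5 it was 10.25 ± 0.55 in 3F and 8.36 ± 0.54 in R1. The change from day 0 was 2.13 ± 0.36 (adjusted p = 0.0057) and to day 11 it was -1.79 ± 0.36 (adjusted p = 0.044). The latter call ended under 12 of the alternatives.

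The difference of Fmr1nb narrowed. R1 held 11.25 ± 0.31 at day 0, 8.12 ± 0.54 at day 5 and 7.26 ± 0.12 at day 11, while 3F held 6.16 ± 0.26, 5.65 ± 0.23 and 5.58 ± 0.40. The change in difference from day 0 to day 5 was 2.63 ± 0.34 (adjusted p = 0.00035). Rhox5 had its lowest mean at day 5 in both lines, with 10.82, 7.97 and 11.07 at days 0, 5 and 11 in 3F and 13.81, 10.39 and 12.03 in R1. Its difference narrowed by 1.47 ± 0.30 from day 5 to day 11 (adjusted p = 0.049), a call that ended under 11 alternatives.

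**Figure D3:**
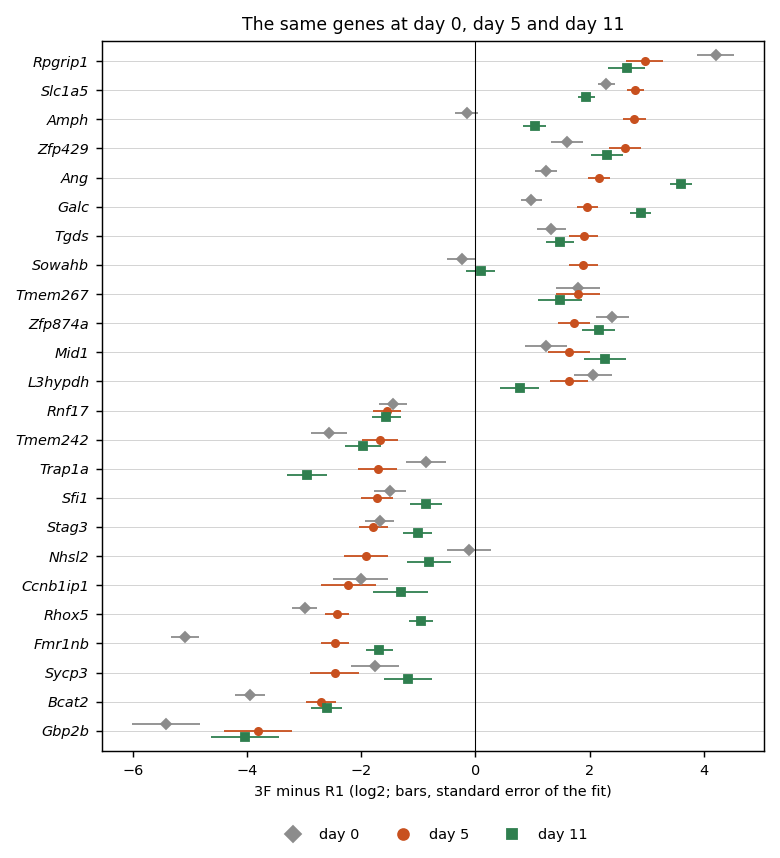
3F minus R1 (log2) at day 0 (diamonds), day 5 (circles) and day 11 (squares) for the same 24 genes, with the standard error of the fit as bars. Most genes lie on the same side of 0 on each day, while Amph and Sowahb lie near 0 at day 0 and far from it at day 5.

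The 3 4F arrays of day 5, from the line 19BL made with 4 factors, give a reference outside the comparison. The 4F mean was nearer the R1 mean than the 3F mean for 58 of the 68 genes, 36 of the 40 that were higher in 3F and 22 of the 28 that were lower. The 4F mean lay beyond the R1 mean for 26 of them. The 3' minus 5' index of the 4F arrays, 1.71, 1.55 and 1.59, was also in the R1 range and above the 3F arrays. Its part in the count was not tested, nor was the count itself. The 68 genes were picked for a gap between 3F and R1, and no share over all genes is given, so the count has no base to be read against. Slc1a5 stood at 7.51 ± 0.27 in 4F (SD, n = 3), Bcat2 at 9.53 ± 0.62, Rhox5 at 10.26 ± 0.38 and Sycp3 at 8.65 ± 0.54. Fmr1nb, at 6.48 ± 0.31, was among the 10 genes whose 4F mean lay nearer 3F.

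From 29 lists of lineage, signalling and state genes with 452 measured members, 1 gene was called (0.221%), the meiotic gene Sycp3, against 0.374% of all genes. A share so near that of all genes is not a result about the lists. In the other 28 lists no member was called. List medians were small and moved with single arrays: 9 of the 29 changed sign in at least 1 of the fits without an array, and 14 with the 3' minus 5' index as covariate. An unadjusted p under 0.05 was seen for 56 list genes (12.4%), against 8.92% of all genes, and the fit called 68 genes over the whole array. None of 33 measured genes of a fixed set of 36 stage and lineage genes was called, and T, H19 and Ddx3y were not analysed here.

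For the streak and mesoderm genes Mixl1, Mesp1 and Eomes the replicates of a line lay further apart than the line means. Mixl1, a homeobox gene of the streak, stood at 12.3, 10.39 and 11.75 in 3F and at 12.43, 11.68 and 9.91 in R1, a difference of 0.15 ± 0.86. Mesp1, a basic helix-loop-helix factor of the first cardiac mesoderm, stood at 12.08, 9.96 and 11.44 in 3F and at 12.11, 11.44 and 9.46 in R1, a difference of 0.16 ± 0.71. Eomes was at 12.79, 10.93 and 11.86 in 3F and at 12.80, 12.25 and 10.09 in R1. In both lines 1 array had less of these 3 genes than its partners, 3F replicate 2 and R1 replicate 3, and the groups overlapped throughout.

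Later genes did not follow 1 pattern in these arrays. Tnnt2, cardiac troponin T, stood at 5.47, 8.26 and 6.68 in 3F and at 4.73, 5.24 and 7.57 in R1, a difference of 0.96 ± 0.65 (adjusted p = 0.75). The array with the most Mixl1 in each line, replicate 1, had the least Tnnt2. The most Tnnt2 was in 3F replicate 2 and R1 replicate 3. These arrays were also the highest of their lines for Tbx20 (11.00 and 10.60), Hand1 (10.15 and 9.78) and Hand2 (10.19 and 10.31). The same held for Igf2 (13.91 and 14.24) and Hbb-y (7.24 and 7.46). In contrast, they were the lowest of their lines for Actc1 (10.06 and 8.52), Myl7 (8.67 and 7.88) and Gata4 (8.84 and 8.24). For the mesoderm gene Kdr they were the lowest too (10.82 and 10.61). Hbb-bh1, an embryonic globin, was at 12.64 in R1 replicate 3, against 7.24 and 8.05 in its partners. In 3F it ran from 6.09 to 8.89 and was highest in replicate 2. Pou5f1 was at 8.60 in R1 replicate 3, against 11.16 and 10.77 in the other R1 arrays and 9.63 to 10.74 in 3F.

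Of the pluripotency list, 27 genes were measured, 0 were called and the median difference was -0.28, with 18 genes below 0. The median was 0.18 without R1 replicate 1, -0.57 without R1 replicate 3 and 0.06 with the index as covariate, so its sign rested on 1 array. Nanog was at 0.64 ± 0.48, Zfp42 at -0.79 ± 0.47, Sox2 at -0.05 ± 0.44 and Pou5f1 at -0.13 ± 0.52, with adjusted p of 0.69 or more. Dppa2 was at -1.56 ± 0.39 (adjusted p = 0.081) and was called with cyclic loess (-1.68, adjusted p = 0.032), with array weights (-2.01), with a replicate block (adjusted p = 0.013), with the block and only the 6 arrays (adjusted p = 0.02), without 3F replicate 1 (-1.97, adjusted p = 0.029) and without R1 replicate 3 (-1.98, adjusted p = 0.019). In the primed epiblast list of 13 measured genes the median was -0.23 (0.04 without R1 replicate 1 and 0.07 with the index), Fgf5 was at -1.28 ± 0.67 and Lef1, a Wnt effector, at 0.91 ± 0.25.

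In the cardiac progenitor list (21 measured) the median was -0.09 (0.10 without R1 replicate 3), and 4 genes had an unadjusted p under 0.05. Hand1, a transcription factor of the heart and extraembryonic mesoderm, was at 0.89 ± 0.32 (adjusted p = 0.35), with 9.42, 10.15 and 10.05 in 3F against 8.43, 8.74 and 9.78 in R1. Tbx20 was at 0.66 ± 0.66, Gata4 at 0.57 ± 0.41, Gata6 at -0.09 ± 0.37, Isl1 at -0.03 ± 0.37, Hand2 at -0.04 ± 0.45 and Nkx2-5 at -0.14 ± 0.25. Kdr, a receptor of early mesoderm, was at 0.22 ± 0.47. Aplnr, another, was at 12.52, 12.41 and 12.36 in 3F and at 12.06, 11.99 and 11.83 in R1, groups that did not overlap. Its difference of 0.47 carried an error of 1.0 because the fit shares 1 spread over all groups, and the 4F arrays of day 5 had an SD of 3.85.

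Of the 31 cardiomyocyte genes the median was 0.01 and none was called. Actc1, cardiac alpha-actin, stood at 10.32, 10.06 and 10.88 in 3F and at 8.80, 9.67 and 8.52 in R1. The groups did not overlap, but the difference of 1.42 ± 0.76 did not pass (adjusted p = 0.62, 95% interval -0.14 to 2.99). Myl4, an atrial and embryonic light chain, was at 1.28 ± 0.48 (adjusted p = 0.38), Tnnc1 at 0.42 ± 0.52 and Myl7 at 0.18 ± 0.72. With only the 6 arrays in the fit Myl4 was called (adjusted p = 0.047). Cacna1c, a subunit of the L-type calcium channel, was at 0.99 ± 0.28 (adjusted p = 0.13) and was called without 3F replicate 2 (1.29, adjusted p = 0.04).

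**Figure D4:**
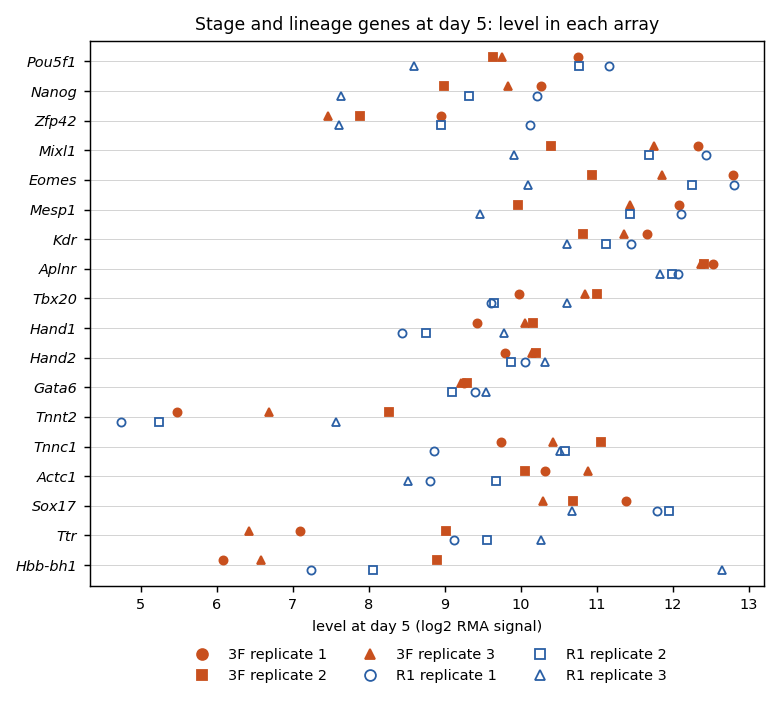
Level of 18 genes of the stage and lineage set in each of the 6 arrays of day 5 (log2 RMA signal), filled for 3F and open for R1, with 1 symbol per replicate. Within each line the array with the highest Mixl1 has the lowest Tnnt2, and R1 replicate 3 has Hbb-bh1 at 12.64.

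The definitive endoderm and erythroid lists had the lowest medians. In the erythroid list (13 measured) the median was -0.42 and 10 genes lay below 0. The median was -0.16 without R1 replicate 3, and -0.65, -0.67 and -0.64 without 3F replicate 2, R1 replicate 1 and R1 replicate 2. Klf1, a transcription factor of red cells, was at -0.99 ± 0.28 (adjusted p = 0.15), with 6.01, 5.97 and 6.59 in 3F and 6.78, 6.57 and 8.20 in R1. Hbb-bh1 was at -2.13 ± 1.22 and Hbb-y at 0.15 ± 0.89. The highest value of Klf1, Hbb-bh1 and Hbb-y was in R1 replicate 3.

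In the definitive endoderm list (10 measured) the median was -0.58, with -0.89 to -0.40 without 1 array and -0.20 with the index. Epcam, an epithelial adhesion protein, was at -1.32 ± 0.40 (adjusted p = 0.19), and was called without R1 replicate 3 (-1.84, adjusted p = 0.019). Foxa1 was at -1.08 ± 0.39, Foxa2 at -0.95 ± 0.39 and Sox17 at -0.69 ± 0.43. Cxcr4 was at 1.39 ± 0.63, with 11.43, 11.28 and 11.51 in 3F and 10.04, 10.11 and 9.91 in R1, groups that stood well apart. It was not called in the fit of all 27 arrays (adjusted p = 0.53) and was called with only the 6 arrays (adjusted p = 0.0032). In the visceral endoderm list (16 measured, median -0.16, and 0.12 with the index), Ttr, a secreted carrier of thyroid hormone, stood at 7.09, 9.01 and 6.42 in 3F and at 9.11, 9.55 and 10.27 in R1. The difference of -2.14 ± 0.70 did not pass (adjusted p = 0.26), and Afp was at -0.21 ± 0.38.

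None of the measured genes of the signalling lists was called. Id1, a target of BMP signalling, stood at 10.91, 10.71 and 11.18 in 3F and at 10.04, 10.04 and 9.99 in R1. Its difference of 0.91 ± 0.19 had an adjusted p of 0.017 but was under 2-fold, so it was not called, and without 3F replicate 2 it was (1.02, adjusted p = 0.022). The medians were 0.20 for BMP and Nodal, 0.14 for Wnt and 0.14 for Notch signalling, of which the last was -0.05 without 3F replicate 1 and -0.02 without R1 replicate 3. Without 3F replicate 3 the Wnt median was 0.02 and the BMP and Nodal median 0.12. Hes1, a Notch target, was at 0.78 ± 0.25. The Hox list (22 measured) had a median of 0.13 (0.03 without R1 replicate 2), with 4 genes at an unadjusted p under 0.05, all higher in 3F: Hoxb1 at 1.84 ± 0.74, Hoxa9 at 1.68 ± 0.68, Hoxb2 at 1.21 ± 0.45 and Hoxd9 at 1.10 ± 0.48. Their adjusted p was 0.38 or more. Hoxb6 was called without R1 replicate 3 (2.64, adjusted p = 0.047).

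The cell cycle list (19 measured) had a median of 0.32 with 18 genes above 0, and the p53 target list (12 measured) had a median of 0.36 with 11 above 0. With the 3' minus 5' index as covariate the medians were 0.01 and -0.05. Quantile normalization gave 0.15 for the cell cycle list, and without R1 replicate 2 the p53 median was 0.17. Ccnd1, cyclin D1, stood at 10.12, 10.29 and 10.27 in 3F and at 9.20, 9.03 and 9.39 in R1, a difference of 1.02 ± 0.30 (adjusted p = 0.19). Cdkn1a, the p21 inhibitor of cyclin-dependent kinases, was at 0.77 ± 0.31 (adjusted p = 0.42). The MHC class I list (8 measured) had the highest median, 0.43, but without R1 replicate 3 it was 0.18, under the fibroblast and feeder list at 0.49. H2-K1 stood at 11.22, 11.24 and 11.12 in 3F and at 10.13, 10.21 and 9.92 in R1, at 1.11 ± 0.31 (adjusted p = 0.14), and H2-D1 was at 1.03 ± 0.28 (adjusted p = 0.12). With only the 6 arrays H2-K1 (adjusted p = 0.0068) and Ccnd1 (adjusted p = 0.014) were called.

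Markers of fibroblasts and feeders and of immune cells, which the embryoid bodies could hold, overlapped between lines in their mean level. Those of visceral endoderm did not, at 6.56 to 6.92 in the 3F arrays and 6.95 to 7.15 in the R1 arrays. The fibroblast and feeder list (22 measured, median 0.28) had a mean level of 7.53 to 8.17 in the 3F arrays and 7.07 to 8.29 in the R1 arrays. With the index as covariate its median was -0.67, and Col1a2 (-2.40), Col3a1 (-2.34) and Postn (-2.93) were called lower in 3F. Without R1 replicate 2 the median was 0.14. In the arrays Col3a1 stood at 5.41, 6.23 and 5.10 in 3F and at 5.23, 5.26 and 8.40 in R1, with R1 replicate 3 highest, and S100a4 was at 0.41 ± 0.39. The immune list (12 measured, median -0.04) had a mean level of 5.48 to 5.66 in 3F and 5.53 to 5.72 in R1. Neural (17 measured) and trophoblast (10 measured) lists had medians of 0.00 and 0.08, and smooth muscle, endothelial and parietal endoderm lists 0.06, -0.19 and 0.08. With the index these last 3 were -0.38, -0.33 and -0.75. Fatty acid oxidation, hypoxia and glycolysis, and immediate early lists had medians of 0.03, 0.08 and 0.12, and the primitive streak list 0.11, which was -0.52 without R1 replicate 3 and -0.25 without 3F replicate 1. The imprinted list (24 measured) had a median of 0.12, with Igf2 at 0.16 ± 0.58 and Meg3 at -0.98 ± 0.45. Mest, at 0.77 ± 0.25, was called without R1 replicate 3 (1.13, adjusted p = 0.019). Both lines had Xist at 5.78 to 6.62 and the Y-linked Eif2s3y at 10.38 to 10.80, and the sex-linked list had a median of -0.21.

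**Figure D5:**
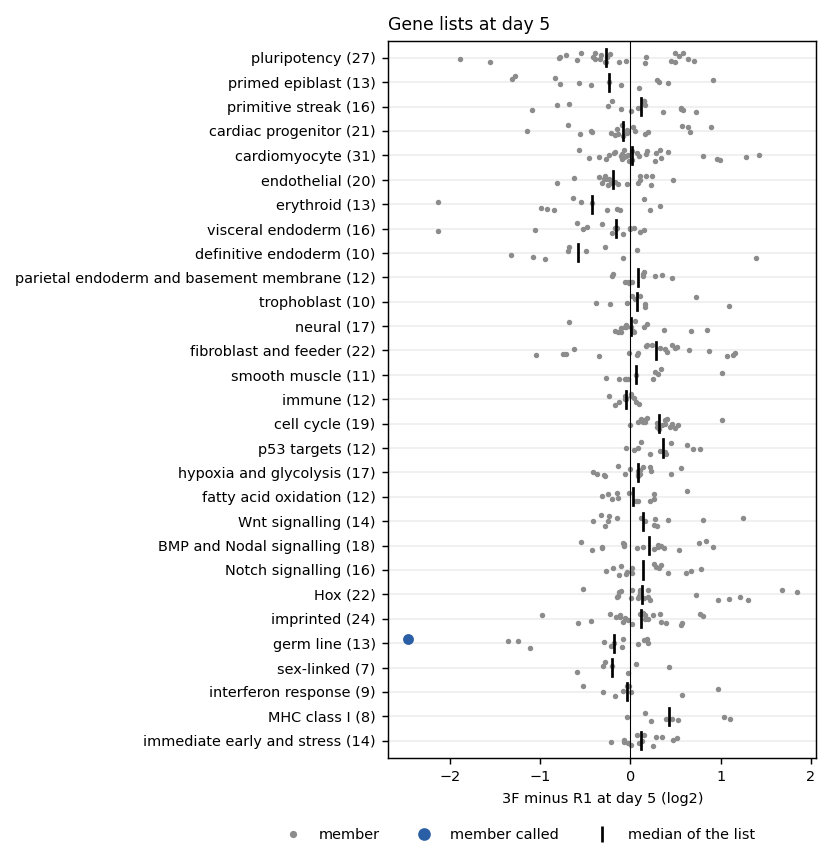
3F minus R1 at day 5 (log2) for the measured members of 29 gene lists, with the number measured after each name. Grey points are members that were not called, the blue point is Sycp3, the 1 called member, and bars are medians, which run from -0.58 (definitive endoderm) to 0.43 (MHC class I).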

How the data were processed

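Total RNA of 27 mouse samples was measured on Affymetrix arrays, 3 biological replicates in each of 9 groups. Per the submitters' processing notes, the deposited log2 values were made with RMA, version not given, and per the labels' protocols cRNA came from 6 ug of column-purified RNA. They ran from 3.00 to 15.67. Arrays have no read depth, so their number limits the precision.

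Of 45101 probe sets, 34945 had 1 symbol in the array annotation, 932 several and 9160 none, and 64 were controls. Where several probe sets shared a symbol, the one with the highest average signal over the 27 arrays stood for the gene, which gave 18193 genes. All 27 arrays entered 1 linear model with 9 group means (limma 3.58.1 under R 4.3.3). Variances were moderated by empirical Bayes, and p-values were adjusted by Benjamini-Hochberg over all genes of a contrast. The fit shares 1 spread over all groups. Changes of the difference between days were tested as contrasts of the same fit. On simulated data of 18193 genes for this comparison, it called 41, 48, 49 and 50 of 50 genes changed by 1.25, 1.5, 2 and 3 (log2), and 3 of 17993 unchanged genes. The simulated noise was independent between genes and arrays, with 1 spread per gene in all groups. It held no shift shared by a whole array, so these counts do not give the rate of false calls in the real arrays.

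Named genes were the 12 largest called differences in each direction with groups that did not overlap (provisional names passed over), up to 4 called genes per list, 36 fixed genes, the 5 largest called changes of difference per contrast that were also called at day 5, and genes that account for a list. The comparison, the lists and the fixed genes were chosen with earlier results of these data known. Promoter windows come from RefSeq (GRCm38.p6). A few other probe sets and an unadjusted threshold were added after the data were seen. Where nothing says that replicates came from separate cultures, p-values measure only the spread between these samples.

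Replicate numbers did not pair the lines at day 5: the correlations of same-numbered deviations were 0.62, -0.27 and 0.03. Between different numbers they ran from -0.58 (3F replicate 1 with R1 replicate 3) to 0.59 (3F replicate 2 with R1 replicate 3). The main fit has no term for deviations shared between arrays of the 2 lines. Alternatives were median centring, cyclic loess, quantile normalization, a filter on dim genes (12280 kept), the mean of probe sets, only the 6 arrays, trend and robust variances, array weights, replicate blocks, the 3' minus 5' index, other thresholds and each day 5 array left out. Figures were made with Python 3.11.15, pandas 2.3.3 and matplotlib 3.10.9.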

Additional observations from a re-analysis of the deposited data

Results flagged for a closer look

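For 11 results the 3F minus R1 difference changed between days by a direct test of that change in limma. From day 0 to day 5 the difference changed by 2.94 for Amph, 2.02 for Ccdc3, 2.13 for Sowahb, 1.08 for Exoc3l2 and -1.73 for Ccser2. That of Fmr1nb changed by 2.63, from -5.09 to -2.46, so it narrowed. Ccdc3 went from -0.78 to 1.23, that is from lower to higher in 3F, and Ccser2 went from 0.54 to -1.19; neither was called at day 0. Exoc3l2 went from 0.48 to 1.56. From day 5 to day 11 the difference changed by -1.90 for AI506816, -1.74 for Amph and -1.79 for Sowahb, and by 1.44 for Ang and 1.47 for Rhox5. Ang went from 2.16 to 3.60 and AI506816 from 3.27 to 1.37.

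The day 0 to day 5 changes of Amph, Ccdc3, Fmr1nb and Sowahb were called under all 19 alternatives. That of Ccser2 ended in each of the 6 fits without an array, and that of Exoc3l2 ended without 3F replicate 3 and without R1 replicate 2. Both also ended with the mean of probe sets and at an adjusted p under 0.01. The other probe sets of Ccser2 read -0.07 and 0.35 at day 5. The changes of AI506816 and Amph to day 11 ended in the fits of only the arrays compared, with and without a replicate block. That of Ang ended under 9 alternatives, 4 of them fits without an array.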

How the results depend on the processing

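The 68 calls became 44 with the mean of probe sets (16 lower), 220 with array weights (105 higher, 115 lower), 42 at an adjusted p under 0.01 (25 higher, 17 lower) and 118 with no fold minimum (71 higher, 47 lower). The index covariate gave 56 lower. Without 1 array the count ran from 39 to 91 (higher 24 to 41, lower 15 to 50). The replicate block gave 75 calls, 68 of them shared, and 70 calls with only the 6 arrays, 49 shared; the pairing has no support in the labels.

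Day 5 genes also called at day 0 were 22 with the mean of probe sets, 85 with array weights, 22 with the index, 24 at 0.01 and 62 with no fold minimum, and 24 to 38 without 1 array. At day 11 they were 5 with only the arrays compared, 14 with the block too, 21 at 0.01 and 59 with no fold minimum, and 22 to 38 without 1 array. The change from day 0 to day 5 was called for 172 genes with only the arrays compared, 808 with array weights, 196 with the block and only the arrays compared, 447 with the index and 25 at 0.01, and 31 to 55 without 1 array. That to day 11 was called for 6, 50 and 3 in the first 3 of these settings and 7 at 0.01, and for 10 to 20 without 1 array. List genes called were 2 with cyclic loess, 7 with only the arrays compared, 43 with array weights, 4 with the replicate block, 6 with the block and only the arrays compared, 4 with the index and 2 with no fold minimum, and 1 to 7 without 1 array. Of 202 genes followed, the 1 that reversed was Sec23ip, at -0.36 with the mean of probe sets (adjusted p = 0.652). The cause of these changes was not tested.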

Other observations

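By reference annotation, the called genes were 7 of 617 measured on X (1.13%) and 7 of 702 on chromosome 13 (0.997%). They were 6 of 640 on chromosome 14 (0.938%) and 11 of 1413 on chromosome 7 (0.778%), against 0.374% of all genes. On chromosome 13, 4 of the 7 (Zfp429, Zfp874a, Amph and Tmem267) were among the 12 largest differences on the higher side. On chromosome 7 Trim68 and Trim12c, both lower in 3F, had 15 measured genes between them, and on the X chromosome Mid1 and Erdr1, both higher, had 2. These shares were not tested.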
